A study of Mus musculus with 7 samples.

Results

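The widest open sites on the autosomes were taken as the rows of chromosomes 1 to 19 with a deposited length of at least 1000 bp in the reproducible peak lists of wild-type neural progenitor cells (NPC) and embryonic stem cells (mESC). The rule found 775 of 39692 autosomal sites in wild-type NPC (1.95%) and 515 of 27538 in mESC (1.87%). These 1290 rows made up 1105 separate loci once overlapping rows of both lists were joined. They are called wide sites here, and the remaining 38917 NPC and 27023 mESC autosomal sites, all under 1000 bp, narrow sites. The members were chosen by their length in these 2 lists, so lengths, reads and allele counts from them are descriptions. The lists that the rule did not use are those of deltaFT NPC and of the 4 TXY samples.

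ATAC-seq marks open chromatin through the Tn5 transposase, which inserts sequencing adapters where DNA is not covered by nucleosomes, so that reads pile up at active promoters, enhancers and insulator sites. Promoters of widely used genes are typically open in most cell types, while distal enhancers are more often open in particular cell types. The length of a called site depends both on the width of the open stretch and on how many reads rise above the background, and several close openings can be joined into 1 site.

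The series holds 7 samples, 1 per group. The deltaFT NPC (line sgdgb2) are described by that name alone in the labels. The other NPC (line C2) and the mESC (line F1216) are wild type, per their titles. All of these lines are female F1 cells of a 129S1 x Cast:EiJ cross. NPC were grown in N2/B27 medium with FGF and EGF, mESC in fetal bovine serum with mLIF. The 4 TXY samples are male J1 mESC with an inducible Xist, the RNA that silences an X chromosome, on their X. They are deltaRepA with doxycycline, deltaRepA untreated, WT with doxycycline and WT untreated, where deltaRepA lacks the A repeat of Xist and doxycycline was given at 2 ug/mL for 48 hours. Each genotype is a single line, and each replicate used 50K cells per the labels. The mESC sample has a source label of neural progenitors, but its title and growth medium are those of mESC. Both doxycycline samples have a description that names a file of untreated cells. Titles were followed in each case, and the labelled cell types were not checked against marker genes here.

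The authors' reproducible lists held 10845382 reads in autosomal sites of deltaFT NPC, 10724324 in wild-type NPC and 6176798 in mESC. The TXY lists held 123996 to 140048 autosomal peaks each, more than any female list, and give no read counts, so their depth is unknown. Intervals are 95% and cover counting error alone: each group is 1 sample, so no spread between samples and no p-value can be given.

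Wide sites were mostly just above the limit. Their median length was 1092 bp in wild-type NPC (quartiles 1039 and 1179 bp, longest 1847 bp) against 398 bp for narrow sites. In mESC it was 1098 bp (quartiles 1040.5 and 1181.5 bp, longest 3729 bp) against 372 bp. A length of 1200 bp or more was reached by 173 NPC and 116 mESC sites, and 1500 bp or more by 17 and 11. Wide sites covered 4.99% of all autosomal site bases and held 7.77% of the reads in wild-type NPC, and 5.0% of bases and 8.53% of reads in mESC. Of the 527001 reads in wide mESC sites, 115492 lay in 1 site, chr17:39979981-39983708. The share of sites that were wide ranged from 0.980% on chromosome 15 to 2.57% on chromosome 16 in wild-type NPC, and from 0.867% on chromosome 15 to 3.20% on chromosome 12 in mESC.

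At the limit itself the values were as follows. In wild-type NPC, 97 sites less than 20 bp above the limit had a median of 0.756 reads per bp, and 131 sites up to 20 bp below it had 0.778. In mESC, 59 sites just inside had 0.639 reads per bp and 93 just outside 0.537. Of those just inside, 99.0% of the NPC sites and 94.9% of the mESC sites were in the deltaFT list, against 96.9% and 88.2% of those just outside. In the other cell type, 85.6% of NPC sites just inside and 77.9% of those just outside were found, and 94.9% and 87.1% of mESC sites.

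Many wide sites were joins of shorter peaks. Each wide site of both lists ran from the outermost start to the outermost end of the library peaks it overlapped. Only 345 wide NPC sites (44.5%) and 173 wide mESC sites (33.6%) were made from 1 peak in each library, against 89.7% and 89.4% of narrow sites. A single library peak of at least 1000 bp lay in 567 wide NPC sites (73.2%) and 309 wide mESC sites (60.0%), and both libraries had one in 139 and 60.

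Some of the longest sites show how a site looked in each list. Coordinates are mm9, counted from 1. The site at chr6:24905065-24906805 was 1742 bp in wild-type NPC with 2281 reads, of which 246 and 257 came from the first-listed and second-listed allele. It was 1619 bp with 1495 reads in deltaFT NPC and 1451 bp with 784 reads in mESC. In the TXY lists it was 1620 bp in deltaRepA with doxycycline, 1791 bp in deltaRepA untreated, 1778 bp in WT with doxycycline and 1774 bp in WT untreated. This site was thus wide in each of the 7 lists.

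A second long site, at chr7:6680053-6681737, was among the 8 longest of both lists. It held 6289 reads over 1686 bp in wild-type NPC, 1398 and 1427 of them allelic, and 2524 reads over 1743 bp in mESC, with 609 and 608 allelic reads. In deltaFT NPC it was split into 2 peaks, and the better matched one was 1230 bp with 717 and 708 allelic reads. The TXY lists gave it 1716, 1735, 1725 and 1747 bp, in the order in which the TXY samples were introduced. Both alleles were read almost equally in each female list.

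Other long sites were long in some lists alone. The site at chr1:99557229-99558895 was 1668 bp in wild-type NPC and 1587 bp in deltaFT NPC, with 1443 and 1444 reads, had no mESC peak, and was 1569 to 1865 bp in the TXY lists. At chr6:108609103-108610725 the site was 1624 bp in wild-type NPC and 1643 bp in deltaFT NPC, against 502 bp in mESC. The TXY lists gave it 1145, 1103, 2596 and 2404 bp, in the order introduced, so it was under 1000 bp in mESC alone. Each deltaRepA list split it into 2 peaks, of which the better matched one is given. The site at chr7:121558125-121559860 was 1737 bp in mESC and 2166 to 2435 bp in the TXY lists. It was 446 bp in wild-type NPC and had no peak in deltaFT NPC. The longest wide site of the mESC and wild-type NPC lists, at chr17:39979981-39983708 in mESC, was 3729 bp with 115492 reads and not 1 allelic read. It was 3795 bp in deltaFT NPC and 3746 to 5762 bp in the TXY lists. In wild-type NPC the same stretch was called as 2 sites of 1847 and 1670 bp, both among the 8 longest there, which had no allelic read either.

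Nearly all wide sites were open in the deltaFT line, which did not enter the choice of sites. Of the wide NPC sites, 770 of 775 (99.4%, 98.5% to 99.8%) overlapped a deltaFT NPC peak by at least 1 bp, against 65.3% of narrow NPC sites. Over all autosomal NPC sites the share was 66.0%. Wide mESC sites were found there in 484 of 515 cases (94.0%, 91.6% to 95.9%), against 47.3% of narrow mESC sites and 48.1% of all mESC sites. The difference was 34.1 points for NPC sites and 46.7 points for mESC sites. Wide sites also held more reads, a median of 853 against 165 in wild-type NPC and 654 against 150 in mESC. With narrow sites weighted to the same reads per site, a comparison chosen after seeing the data, the difference was 4.35 and 11.3 points. With narrow sites weighted to the same reads per bp it was 15.2 and 34.0 points.

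Most wide sites of one cell type were also open in the other, although far fewer were wide in both. Of the wide NPC sites, 682 (88.0%, 85.5% to 90.2%) overlapped an mESC peak, against 30.6% of narrow ones and 31.7% of all NPC sites. Of the wide mESC sites, 467 (90.7%, 87.8% to 93.0%) overlapped a wild-type NPC peak, against 45.4% of narrow ones and 46.3% of all mESC sites. The differences were 57.4 points (54.9 to 59.5) and 45.3 points (42.4 to 47.6). They came to 17.4 and 8.34 points with narrow sites weighted to the same reads per site, and to 40.5 and 32.1 points with reads per bp.

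Within each of 4 classes of reads per bp, equal in number of sites, wide sites were shared more often than narrow ones. In the class of NPC sites with the fewest reads per bp, 75% of 24 wide sites and 14.1% of narrow sites were in the mESC list. In the class with the most, it was 91.6% of 489 wide sites and 54.7% of narrow sites. For mESC sites in the wild-type NPC list the lowest class gave 80.0% of 30 wide sites and 25% of narrow sites, and the highest 93.6% of 282 and 67.9%.

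**Figure D1:**
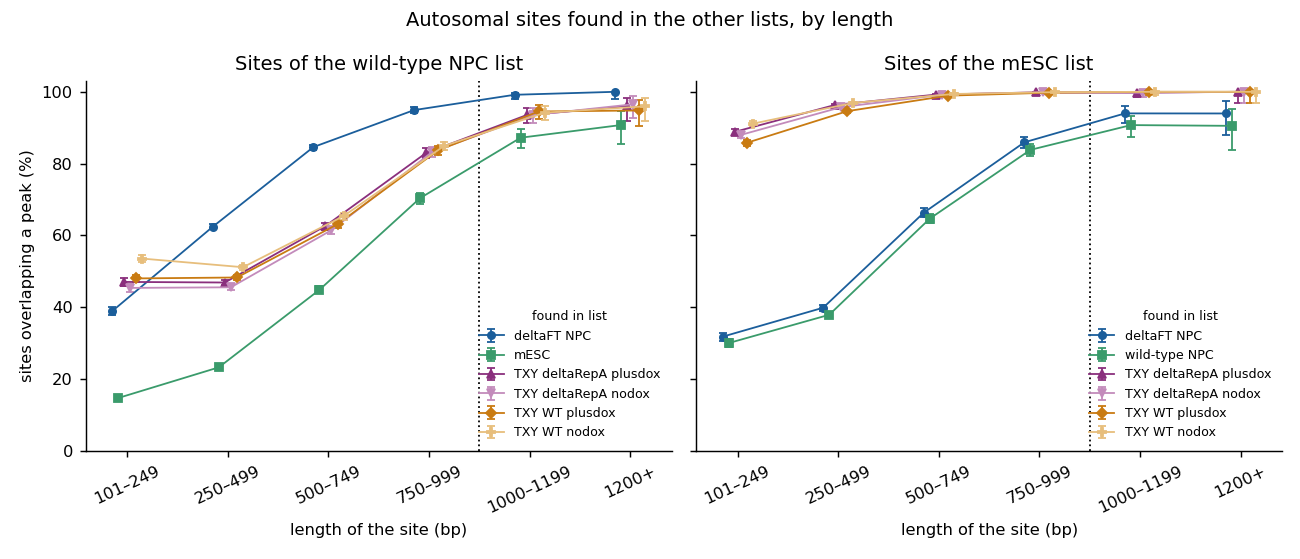
Share of autosomal sites (%) that overlap a peak of each other list by at least 1 bp, by length of the site in bp, for wild-type NPC sites (left) and mESC sites (right). Points carry 95% Clopper-Pearson intervals and the dotted line marks 1000 bp. The share of NPC sites found in mESC is 14.7% under 250 bp and 90.8% at 1200 bp or more, whereas mESC sites lie above 80% in all TXY lists at every length.

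The share of sites found in the other female lists went up with length below the limit of 1000 bp and little beyond it, as the plot of presence by length shows. For NPC sites in the mESC list it was 14.7% under 250 bp, 23.2% from 250 bp, 44.8% from 500 bp, 70.4% from 750 bp, 87.2% from 1000 bp and 90.8% from 1200 bp. For mESC sites in the wild-type NPC list the corresponding shares were 30%, 37.9%, 64.7%, 83.8%, 90.7% and 90.5%. For NPC sites in the TXY lists the shortest lengths were level or went down, at 53.5% under 250 bp and 51.1% from 250 bp in untreated WT, and at 47.0% and 46.9% in deltaRepA with doxycycline.

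The sites that were not shared had fewer reads. The 93 wide NPC sites with no peak in the mESC list had a median of 0.596 reads per bp in wild-type NPC, and the 682 with a peak 0.768. Of the 93, 40 did overlap a peak in one of the 2 mESC library lists and 53 overlapped none. The 48 wide mESC sites with no wild-type NPC peak had 0.480 reads per bp in mESC, against 0.578 for the others. Of these, 29 overlapped a peak in a library list and 19 did not. The corresponding shares among unshared narrow sites are not given here.

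By width, 185 wide NPC sites (23.9%) had a matched mESC peak of at least 1000 bp, 497 (64.1%) a narrower one and 93 (12%) none. Over all NPC sites 1.36% had such a wide match. Of the wide mESC sites, 184 (35.7%) were also wide in wild-type NPC, 283 (55.0%) were narrower there and 48 (9.32%) absent, against 2.88% of all mESC sites with a wide match. The matched peak had a median of 808 bp in mESC for wide NPC sites and 493 bp for narrow ones. In wild-type NPC it had 931 bp for wide mESC sites and 566 bp for narrow ones.

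The length itself recurred in deltaFT NPC. A matched deltaFT peak of at least 1000 bp was found for 484 wide NPC sites (62.5%, 58.9% to 65.9%), against 3.01% of narrow ones and 4.17% of all NPC sites. It was found for 278 wide mESC sites (54.0%, 49.6% to 58.3%), against 4.51% of narrow ones and 5.43% of all mESC sites. The differences were 59.4 and 49.5 points, and 51.4 and 37.1 points with narrow sites weighted to the same reads per site. Matched deltaFT peaks had a median of 1056 bp (quartiles 918.5 and 1187 bp) for wide NPC sites, against 509 bp for narrow ones. For wide mESC sites the median was 1039 bp (867.75 and 1189.5 bp), against 630 bp.

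**Figure D2:**
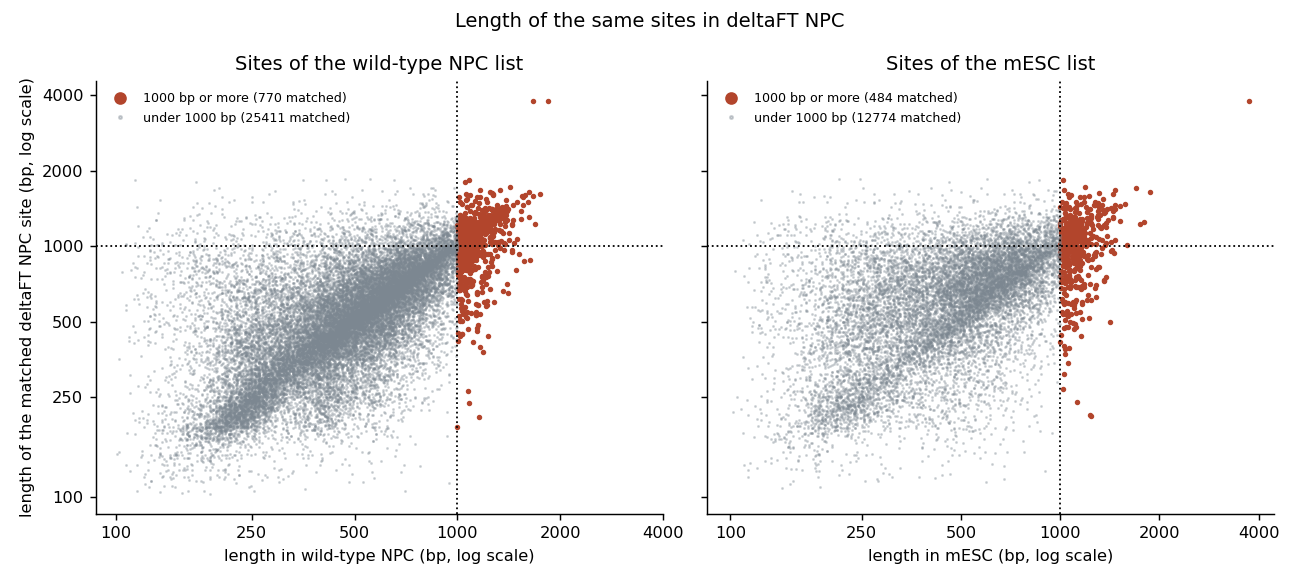
Length in bp of the deltaFT NPC peak with the largest overlap (vertical, log scale) against length in the list of origin (horizontal, log scale), for wild-type NPC sites (left) and mESC sites (right). Each point is 1 matched site, red for wide and grey for narrow, and dotted lines mark 1000 bp. Red points lie on both sides of the horizontal line, with a median of 1056 bp for NPC sites and 1039 bp for mESC sites.

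Wide sites were also more often cut into pieces in other lists. A wide NPC site overlapped at least 2 deltaFT peaks in 100 cases (12.9%), against 1.55% of narrow sites. In mESC it did so in 110 cases (14.2%), against 1.17%. For wide mESC sites it was 77 (15.0%) in deltaFT NPC and 71 (13.8%) in wild-type NPC, against 1.42% and 1.29% of narrow sites. The part of site length itself in these counts was not tested.

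The deltaFT list had more wide sites of its own, 1439 of 36036 autosomal sites (3.99%). Of these, 1393 (96.8%) overlapped a wild-type NPC peak, but only 483 (33.6%) were matched to one of at least 1000 bp, and 910 were narrower in wild-type NPC. In mESC, 1271 (88.3%) had a peak and 278 a wide one. The shares over narrow or all deltaFT sites are not given here, so these counts do not compare wide with narrow sites.

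Presence in the TXY lists set both groups of wide sites apart from narrow ones, but by very different margins. In deltaRepA with doxycycline, 729 wide NPC sites (94.1%) overlapped a peak, against 53.8% of narrow ones and 54.6% of all. In untreated deltaRepA it was 730 (94.2%), against 52.6% of narrow and 53.4% of all NPC sites. WT with doxycycline and WT untreated each held 733 (94.6%), against 54.9% and 58.0% of narrow sites and 55.6% and 58.8% of all. The sites were not always the same, as 12, 6 and 7 wide NPC sites were in 1, 2 and 3 of the 4 lists. All 4 lists held 720 wide NPC sites (92.9%), against 46.4% of narrow and 47.3% of all NPC sites. The difference of 46.6 points came to 15.3 points when narrow sites were weighted to the same reads per site.

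Wide mESC sites were nearly complete in the TXY lists, which come from the same cell type. Each deltaRepA list held 514 of 515 (99.8%) and each WT list all 515. The share over all mESC sites was 95.5% in deltaRepA with doxycycline, 95.1% in untreated deltaRepA, 94.0% in WT with doxycycline and 96.4% in untreated WT. All 4 lists held 514 wide sites (99.8%), against 89.7% of narrow and 89.9% of all mESC sites. This difference of 10.1 points came to 1.81 points with weighting to reads per site and to 5.65 points with reads per bp. It was 28.1 points when TXY peaks were limited to a −log10 q of at least 5, because the share of narrow sites was then 69.9%.

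Width was kept in the TXY lists as well. A matched peak of at least 1000 bp was found for 65.4% of wide NPC sites in deltaRepA with doxycycline, 66.6% in untreated deltaRepA, 71.7% in WT with doxycycline and 79.9% in untreated WT. Over all NPC sites these shares were 9.50%, 10.3%, 11.9% and 15.8%. For wide mESC sites they were 86.6%, 84.7%, 93.2% and 94.0%, against 17.3%, 19.1%, 19.8% and 27.3% of all mESC sites. All 4 lists gave such a peak for 393 wide NPC sites (50.7%), against 4.57% of narrow and 5.47% of all NPC sites. For wide mESC sites it was 396 (76.9%), against 8.11% of narrow and 9.39% of all. In all 6 other lists, the site was at least 1000 bp for 138 wide NPC sites (17.8%), against 0.647% of all NPC sites, and for 137 wide mESC sites (26.6%), against 1.21% of all mESC sites. The TXY samples also differ in their own number of peaks of at least 1000 bp, from 4853 in deltaRepA with doxycycline to 8042 in untreated WT.

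Within each TXY list, ranked by the authors' values, the peaks at wide sites stood high. The median peak at a wide NPC site was longer than 97.7% to 98.1% of the list's peaks, and at a narrow NPC site longer than 81.2% to 84.2%. By −log10 p it ranked above 93.2% to 95.2% of peaks for wide NPC sites and above 81.8% to 86.0% for narrow ones. For mESC sites the −log10 p rank was 95.2% to 96.0% for wide and 86.6% to 89.0% for narrow sites.

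Few wide sites were missing from whole sets of lists. Of the wide NPC sites, 30 (3.87%) were in none of the 4 TXY lists, against 36.0% of narrow and 35.4% of all NPC sites. All 30 were missing from the mESC list too, 29 were in deltaFT NPC, and their median was 0.548 reads per bp in wild-type NPC. Only 1.33% of narrow mESC sites and no wide one lay outside all 4 TXY lists, so a site missing there could rarely be in the mESC list. The same counts for narrow NPC sites in no TXY list are not given here. A single wide NPC site (0.129%) was in none of the 6 other lists, against 18.5% of narrow and 18.1% of all NPC sites. It lay at chr19:43138326-43139324, had a deposited length of 1000 bp and held 434 reads with 164 and 178 allelic reads. At the opposite end, 679 wide NPC sites (87.6%) were in all 6 other lists, against 27.0% of narrow and 28.2% of all. Of wide mESC sites, 460 (89.3%) were, against 40.2% of narrow and 41.1% of all.

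Joined over both cell types, the 1105 loci fell into 184 wide in both, 590 wide in wild-type NPC alone and 331 wide in mESC alone. The 184 loci wide in both were all found in deltaFT NPC, where 159 (86.4%) were again wide, and all lay in each of the 4 TXY lists. These 184 are open in both cell types by definition, and narrow sites open in both were also mostly in the other lists. Of 11910 narrow NPC sites found in mESC, 10507 were in all 6 other lists. Of 12272 narrow mESC sites found in wild-type NPC, 10863 were. Of the 590, 585 (99.2%) were in deltaFT NPC, 324 (54.9%) wide there, and 535 (90.7%) in all 4 TXY lists. Of the 331, 300 (90.6%) were in deltaFT NPC, 119 (36.0%) wide there, and 330 (99.7%) in all 4 TXY lists. In total 954 loci (86.3%) were open in all 7 samples. Of the loci wide in wild-type NPC alone 497 were open in both cell types, and of those wide in mESC alone 283. Narrow sites were not joined into loci in the same way. The counts for the 590, the 331 and all 1105 loci therefore do not compare wide with narrow sites.

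Reads per bp went up with length in every female list. The median was 0.747 in wide and 0.437 in narrow sites of wild-type NPC, a ratio of 1.71, and 0.567 and 0.408 in mESC, a ratio of 1.39. In deltaFT NPC, its own sites of at least 1000 bp had 0.750 and those below 0.450, again with sites split by length in the list that gave the reads. Matched deltaFT peaks had a median of 0.836 reads per bp at wide NPC sites and 0.531 at narrow ones, a ratio of 1.58. At mESC sites they had 0.800 and 0.633, a ratio of 1.26. Wide NPC sites measured in mESC gave 0.574 against 0.474, and wide mESC sites measured in wild-type NPC gave 0.735 against 0.595. Levels are raw reads, not scaled to depth, and were not compared between lines.

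**Figure D3:**
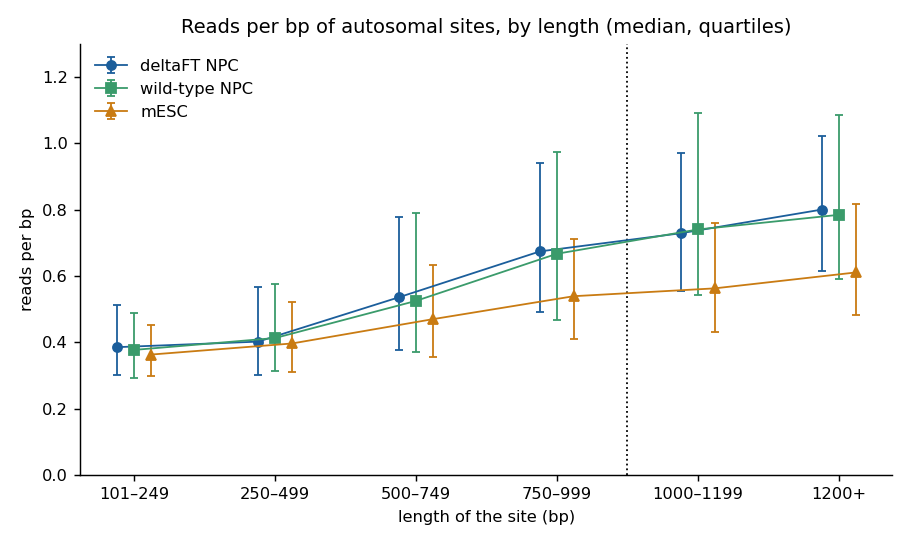
Median reads per bp of autosomal sites by length of the site in bp, in deltaFT NPC, wild-type NPC and mESC. Bars are quartiles over sites and the dotted line marks 1000 bp; the medians go from 0.385, 0.377 and 0.363 under 250 bp to 0.800, 0.784 and 0.610 at 1200 bp or more, with wide overlap of the quartiles between neighbouring lengths.

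Some wide sites held no allelic read, and a few of these held many reads. There were 38 wide sites without an allelic read in wild-type NPC (4.90%, against 7.12% of narrow sites) and 21 in mESC (4.08%, against 6.89%). Their median was 0.646 reads per bp in wild-type NPC and 0.556 in mESC, against 0.747 and 0.567 over all wide sites. They held 9.89% of the reads in wide NPC sites and 28.6% of those in wide mESC sites, and 115492 of the mESC reads lay in the chr17 site described above. Another, chr2:98506384-98507510, held 21201 reads over 1128 bp in mESC, and its wild-type NPC counterpart 15276. In wild-type NPC the site with most reads was chr11:3092752-3093903, with 17262 reads over 1153 bp and no allelic read. Apart from the longest, the sites in this paragraph were picked with their values known, for having the most reads. Without such sites, 41.5% of reads in wide NPC sites and 40.1% in wide mESC sites were given to an allele. With them it was 37.4% and 28.6%, against 39.0% and 41.2% in narrow sites.

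Allelic balance was closer at wide sites of wild-type NPC. The share of allelic reads from the first-listed allele is given for sites with at least 10 allelic reads. The deposited columns carry no strain name. In wild-type NPC, 15 of 729 wide sites (2.06%, 1.16% to 3.37%) lay outside 30% to 70%, against 14.8% of narrow and 14.5% of all NPC sites. Wide sites had a median of 325 allelic reads and narrow sites 74. With narrow sites weighted to the same allelic reads, the share outside was 6.23% in narrow sites, and the difference of -12.7 points came to -4.17 points. The quartiles were 46.9% and 54.9% for wide sites, and 42.6% and 58.5% for narrow sites. The same wide NPC sites measured in deltaFT NPC were outside in 16 of 724 cases (2.21%), against 10.3% of narrow ones.

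In mESC the picture depended on chromosome 12. Outside 30% to 70% were 47 of 484 wide mESC sites (9.71%, 7.22% to 12.7%), against 13.6% of narrow and 13.5% of all mESC sites. Of the 47, 37 were on chromosome 12, where 37 of 52 wide sites (71.2%) and 53.9% of narrow sites were outside. Weighted to the same allelic reads, the narrow share on chromosome 12 was 70.2%. Without chromosome 12, 10 of 432 wide sites (2.31%) and 10.9% of narrow sites were outside, a difference of -8.60 points in place of -3.88. With narrow sites weighted to the same allelic reads, the share outside was 5.22% in narrow sites without chromosome 12, and the difference over all autosomes was -2.34 points. With at least 50 allelic reads it was -1.92 points, with an interval of -4.24 to 1.07 that includes 0. Measured in other lines, wide mESC sites were outside in 13 of 448 cases (2.90%) in deltaFT NPC and in 8 of 422 (1.90%) in wild-type NPC, against 7.26% and 8.07% of narrow mESC sites.

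**Figure D4:**
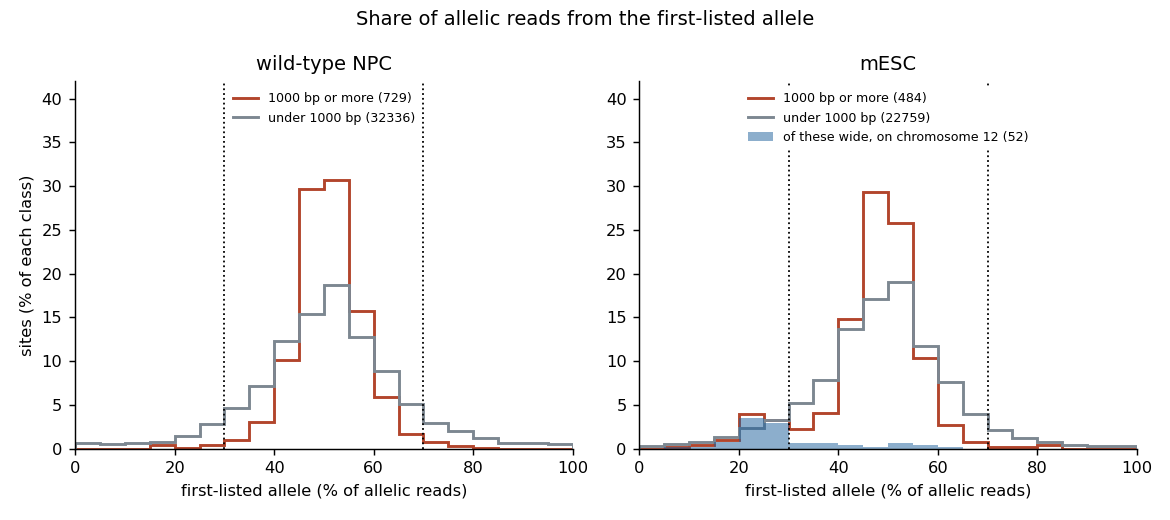
Share of sites (% of each class) by the first-listed allele's share of allelic reads (%), in bins of 5 points, for wild-type NPC (left) and mESC (right). Red lines are wide sites, grey lines narrow sites, the filled area in mESC the wide sites on chromosome 12, and dotted lines mark 30% and 70%. Wide sites centre near 50% in both, and the second rise at 20% to 30% in mESC is made almost wholly of the 52 wide sites on chromosome 12.

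The skewed chromosome 12 sites lay together on the distal side. The 37 spanned chr12:76408970-121185215, all with a first-listed share between 6.12% and 29.9% and a median of 24.3%. Most of the same sites were near balance elsewhere, with a median of 49.2% over 34 sites in deltaFT NPC and 48.2% over 27 in wild-type NPC. Under 30% there too were 1 of the 34, chr12:117285461 with 2.59% in deltaFT NPC (11 and 413 reads), and 3 of the 27, chosen for mention after their values were seen. The lowest of these 3, chr12:96933179, had 22.7% in wild-type NPC (93 and 317 reads) but 63.8% in deltaFT NPC. The stretch of chromosome 12 from 76408970, the start of the first of the 37, was set after their positions and allele shares were seen. It held 44 wide sites among 1189 mESC sites (3.70%, 2.70% to 4.94%), against 1.78% on the other chromosomes. The interval does not allow for that choice of boundary. Reads per bp in mESC were also higher there, 0.949 in wide and 0.502 in narrow sites, against 0.555 and 0.405 on the other chromosomes. The part of these higher reads in the number of wide sites was not tested. Chromosome 12 as a whole had 2.11% wide sites in wild-type NPC, within the range of the other chromosomes.

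The skewed mESC sites with most allelic reads were all on chromosome 12. At chr12:117518906-117520418 the first-listed allele had 581 and the second-listed 1431 of 3540 reads. At chr12:119539397-119541095, 1700 bp long, they had 548 and 1427 reads in mESC, against 823 and 850 in deltaFT NPC. The second longest mESC site, chr12:78338869-78340746 with 1879 bp, had 84 and 244 reads in mESC, against 91 and 118 in deltaFT NPC and 33 and 50 in wild-type NPC.

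The 15 skewed wide NPC sites were spread over both directions, 7 under 30% and 8 over 70%. Of the 14 measured in deltaFT NPC, 13 lay on the same side of 50% and 4 were again outside the limits in the same direction. Some of the 13 were near balance there, such as chr11:17111269 with 51.6% (32 and 30 reads, 38.6% to 64.5%). Of the skewed wide mESC sites, 20 of 38 measured in deltaFT NPC and 19 of 31 in wild-type NPC lay on the same side. The shares among skewed narrow sites are not given here. At chr11:101519548-101520702 the first-listed share was 76.6% in wild-type NPC (288 and 88 reads), 73.7% in deltaFT NPC and 81.7% in mESC, so that it leaned the same way in all 3 lines. At chr2:37213897-37214900 it was 71.3% in wild-type NPC (513 and 206 reads) and 69.1% in deltaFT NPC, against 53.5% in mESC. At chr13:72765547-72766695 it was 24.5% in wild-type NPC (110 and 339 reads), but 45.5% in deltaFT NPC and 48.9% in mESC. The chr4 site at 120242150 to 120243291 gave 29.8% in wild-type NPC, 45.5% in deltaFT NPC and 59.1% in mESC. The chr11 site at 50305896 to 50306966 gave 70.2% in wild-type NPC and 76.5% in deltaFT NPC, with no mESC value.

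Pooled over reads, the first-listed allele had 50.9% at wide and 50.4% at narrow NPC sites. In mESC it had 45.6% at wide and 48.1% at narrow sites. Without chromosome 12 these were 48.9% and 49.5%, so that the mESC difference of -2.49 points came to -0.64 points.

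Wide sites were not strongly clustered. In wild-type NPC, 51 of 775 wide sites (6.58%, 4.94% to 8.56%) had another wide site within 50 kb, against 4.88% of narrow and 4.92% of all sites, a difference of 1.70 points (0.14 to 3.68). Among sites of 1200 bp or more this difference was 0.0123 points. In mESC, 20 of 515 (3.88%, 2.39% to 5.93%) did, against 3.16% of narrow and 3.17% of all sites, a difference of 0.73 points whose interval of -0.65 to 2.78 includes 0. The mESC difference was -1.21 points without chromosome 12 and -0.12 points within 10 kb. At 500 kb the shares were 41.2% of wide and 33.6% of narrow NPC sites, and 26.2% and 24.4% of mESC sites.

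**Figure D5:**
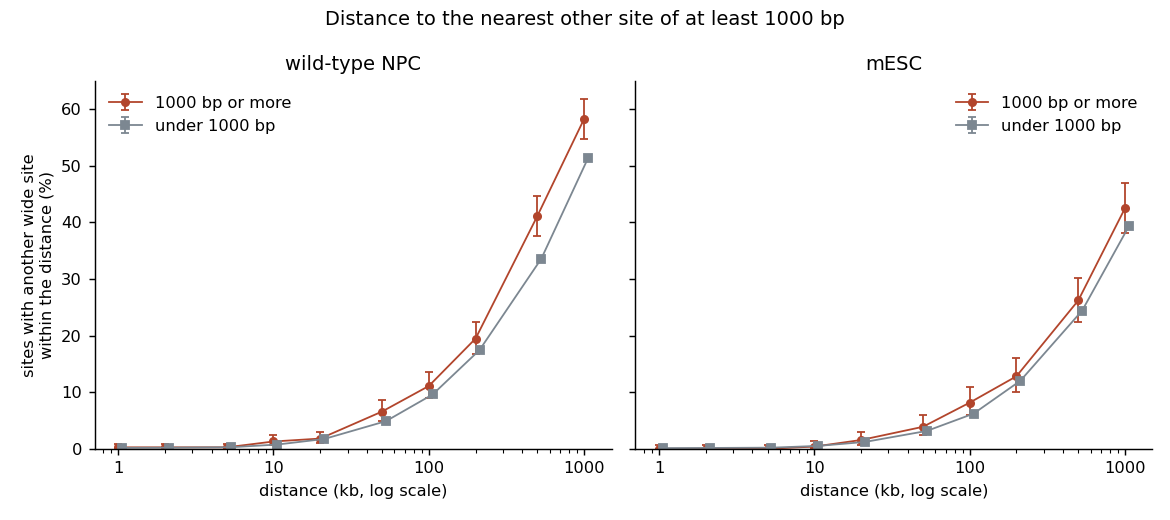
Share of wide (red) and narrow (grey) sites (%) with another wide site of the same list within a distance in kb (log scale), in wild-type NPC (left) and mESC (right). Bars are 95% Clopper-Pearson intervals; the curves run close together up to 200 kb, and in wild-type NPC wide sites reach 41.2% and narrow sites 33.6% at 500 kb.

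Against all open sites, wide sites were the more isolated ones. The median gap to the nearest other site of any length was 18.6 kb for wide and 9.99 kb for narrow NPC sites, and 27.6 kb and 11.5 kb in mESC. Within 50 kb, wide sites had on average 2.55 other sites in wild-type NPC and 1.72 in mESC, against 2.99 and 2.62 for narrow sites. No other site lay within 50 kb of 15.4% of wide and 12.3% of narrow NPC sites, or of 28.0% of wide and 16.9% of narrow mESC sites. The part in these gaps of wide sites that were joined from several library peaks was not tested.

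Of the 1105 loci, 1014 had no other wide locus within 50 kb, and 91 (8.24%) formed 44 pairs and 1 triple. The triple spanned chr1:145549283-145625046, a stretch of 75.8 kb with 3 wide sites in wild-type NPC and 2 in mESC. Its NPC sites of 1117, 1121 and 1379 bp held 639, 688 and 1352 reads, and its mESC sites of 1073 and 1138 bp held 652 and 1132. Next came 9 pairs with 3 wide sites each, of which the 4 with the shortest span are given. At chr7:127978486-127987205, 2 NPC sites of 1132 and 1098 bp held 1048 and 1154 reads within 8.72 kb. Only the second of these was wide in mESC, with 427 reads over 1123 bp. The other 3 pairs, chr8:63461733-63472560, chr14:41769059-41780942 and chr2:13976670-13996274, spanned 10.8, 11.9 and 19.6 kb. Each also had 2 wide NPC sites and 1 wide mESC site. First-listed allele shares in these 5 groups ran from 37.8% to 56.3%, all within the 30% to 70% limits.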

How the data were processed

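The authors deposited, for each female line, a list of peaks reproducible between 2 libraries (irreproducible discovery rate under 0.05 in each row) and 1 list per library, and for each TXY sample 1 list. The reproducible lists deposited by the authors hold raw read counts per site and counts per allele. The library and TXY lists deposited by the authors give each peak a fold enrichment, a −log10 p and a −log10 q value, used only to rank or filter within a list. Per the submitters' processing notes, cutadapt, Bowtie2, MACS2 and the mm9 build were used. Not given in the sources used here are the handling of duplicates, any read shift, the way alleles were assigned and whether counts cover 1 library or both. Annotation and sequence of mm9 were not used here.

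Sites overlapped where they shared at least 1 bp, and a matched peak is the one with the largest overlap. Lengths in the reproducible lists are as deposited, which is 1 bp more than end minus start of the deposited row. Lengths of library and TXY peaks are end minus start. Shares carry Clopper-Pearson and differences Newcombe intervals. These cover counting error alone and treat sites, or allelic reads, as independent of each other. Reads lacking molecular identifiers can be copies of 1 molecule, so intervals over allelic reads can be too narrow. Weighting used 10 bins. Named sites come from the 8 longest per list and the 5 groups with most wide sites (ties by shortest span). They also come from the 5 skewed sites per list with most allelic reads and those in no other list. Not all of the longest and of the skewed mESC sites are named. Sites outside these rules were chosen after their values were seen. The members, limits and lists were chosen with earlier results of these data known. Steps were tested on simulated data. Python 3.11.15, numpy 2.4.6, pandas 2.3.3, scipy 1.17.1 and matplotlib 3.10.9 were used.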

Additional observations from a re-analysis of the deposited data

Results flagged for a closer look

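The pooled first-listed allele share differed in direction between the cell types. Wide minus narrow sites gave 0.51 points in wild-type NPC and -2.49 points in mESC. The difference between the cell types was not tested. Without chromosome 12, chosen after seeing the data, the values were 0.50 and -0.64 points.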

How the results depend on the processing

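Over 16 results and 106 alternatives, 102 values kept the direction of the reported one and 4 reversed. Shares are wide minus narrow, in points, in the order of NPC sites in mESC, in deltaFT NPC and in all 4 TXY lists, then mESC sites in wild-type NPC, in deltaFT NPC and in all 4 TXY lists, where the setting moved them. The reported values were 57.4, 34.1, 46.6, 45.3, 46.7 and 10.1. Weighting to reads per bp gave 40.5, 15.2, 32.3, 32.1, 34.0 and 5.65. Weighting to reads per site, added after seeing the data, gave 17.4, 4.35, 15.3, 8.34, 11.3 and 1.81. A midpoint inside a peak gave 50.4, 32.2, 43.1, 39.2 and 43.1 for all but the last. Covering 50% of the site gave 46.7 for NPC sites in mESC and 40.0, 43.5 and 13.0 for the mESC sites. A limit of 900 bp gave 52.7 and 44.0 for NPC sites in mESC and in the TXY lists. Library 1 and library 2 lists gave 50.2 and 50.4, 13.4 and 17.6, 41.2 and 39.6, and 39.1 and 41.6 for the female lists. TXY peaks with a −log10 q of at least 5 gave 55.7 for NPC and 28.1 for mESC sites.

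For a deltaFT peak of at least 1000 bp, reported as 59.4 for NPC sites and 49.5 for mESC sites, weighting to reads per site gave 51.4 and 37.1. A limit of 1200 bp, for the site and its deltaFT peak, gave 54.4 and 45.1. The same with 900 bp gave 55.0 for mESC sites. Counting only wide NPC sites with a single library peak of at least 1000 bp, added after seeing the data, gave 65.6. Clustering within 50 kb, 1.70 points in NPC and 0.73 in mESC, was 0.0123 in NPC at 1200 bp. In mESC it reversed to -1.36 at 900 bp, to -0.12 within 10 kb and to -1.21 without chromosome 12, the last chosen after seeing the data. The mESC ratio of reads per bp, 1.39, was 1.49 at 1200 bp.

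The share outside 30% to 70%, -12.7 points in NPC, was -14.6 at 1200 bp, -9.35 with at least 50 allelic reads and -4.17 weighted to allelic reads. In mESC, -3.88 points reversed to 0.78 at 1200 bp, and was -6.06 at 900 bp, -1.92 with at least 50 allelic reads, -2.34 weighted to allelic reads and -8.60 without chromosome 12. The pooled share, 0.51 points in NPC and -2.49 in mESC, was 0.26 and -1.54 at 900 bp, 0.070 and -3.32 at 1200 bp, and -0.64 in mESC without chromosome 12. The causes of these shifts were not tested. No paired analysis was possible because each group is 1 sample and no test between samples was made. Sequencing depth is not given here. Reads in called autosomal sites were 6176798 in mESC and 10724324 in wild-type NPC, and these also depend on how many sites were called. The TXY lists record no reads. A site missing from a list may lie under its detection limit.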
